A study of Homo sapiens with 36 samples.

Results

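The genes described here make cholesterol or control its making: 28 genes out of the 21950 rows of the gene table. They were chosen by name and not by a threshold on measured values. Of the 28, 18 are enzymes of synthesis, 5 belong to the control of the SREBP transcription factors, 3 move sterols inside the cell (STARD4, NPC1 and NPC2) and 2 export them (ABCA1 and ABCG1). SC5D stands in the table under its older name SC5DL. Of the enzymes, 4 consume molecular oxygen (SQLE, CYP51A1, MSMO1 and SC5D), and these are set against the 14 that do not.

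The cells were K562, a human erythroleukemia line grown here in DMEM, and their polyadenylated RNA was sequenced. Plates stood in incubators set to 1%, 5% or 21% oxygen. They were sampled at 6 h, 24 h, 3 d and 6 d, in 12 groups of 3 libraries, 36 libraries in all. Nothing else is stated to differ between the groups, and cultures were passaged at 3 d. Each oxygen level had its own incubator, so that oxygen and incubator cannot be told apart. The question the design asks is which genes respond to low oxygen and when. Nothing in the labels says that the 3 libraries of a group came from separate cultures, so the p-values below measure only the spread between these libraries.

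Cells build cholesterol from acetyl-CoA through mevalonate, farnesyl diphosphate, squalene and lanosterol. The steps that add an epoxide to squalene, strip methyl groups from lanosterol and add a double bond to the ring take oxygen directly. The transcription factors SREBP, encoded by SREBF1 and SREBF2, wait in the membrane of the endoplasmic reticulum bound to SCAP. When membrane sterol is low, SCAP carries them to the Golgi, where they are cut and freed to enter the nucleus. When sterol is plentiful, INSIG1 and INSIG2 hold SCAP back. INSIG1 is itself a target gene of SREBP, as are most of the enzymes.

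SREBP is known to act at promoters together with NF-Y, which binds the letters CCAAT, and with Sp1, which binds GC boxes. Promoter windows from RefSeq (GRCh38.p14) were found for 24 of the 28 genes and not for ACAT2, FDFT1, SQLE and ABCG1. In the 250 bases before the start, CCAAT on either strand was present in 17 of the 24 genes, and in 13 of the 15 enzymes, against 37% of the 27305 genes with a window. GGGCGG on either strand was present in 23 of the 24, against 46.2% of all genes. The SREBP-type letters CACCCCAC were present in 2 of the 24 (SREBF2 and ABCA1), against 2.97%, and the E-box CACGTG in 4, against 7.73%. The HIF-type letters ACGTG, which overlap the E-box, were present in 7, against 21.7%. A match is a description of the letters only. The 250 bases before the start are shown for 3 enzymes whose levels moved far, 1 of them with no CCAAT, and for INSIG1 and SREBF2, which control the pathway. Capitals mark the 3 motifs CCAAT, which reads as ATTGG on the other strand, CACGTG, and CACCCCAC.
HMGCS1, chr5:43313413-43313662, minus strand: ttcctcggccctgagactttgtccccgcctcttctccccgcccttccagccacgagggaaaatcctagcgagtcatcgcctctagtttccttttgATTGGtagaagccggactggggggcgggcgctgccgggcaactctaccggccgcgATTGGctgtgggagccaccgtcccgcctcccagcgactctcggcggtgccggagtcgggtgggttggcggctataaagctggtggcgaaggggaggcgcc
MSMO1, chr4:165327419-165327668, plus strand: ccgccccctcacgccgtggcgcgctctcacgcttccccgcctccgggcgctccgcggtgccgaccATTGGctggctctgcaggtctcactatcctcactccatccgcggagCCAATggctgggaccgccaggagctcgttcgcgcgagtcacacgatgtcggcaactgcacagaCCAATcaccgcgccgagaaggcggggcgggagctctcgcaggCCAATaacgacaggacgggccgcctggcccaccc
CYP51A1, chr7:92134478-92134727, minus strand: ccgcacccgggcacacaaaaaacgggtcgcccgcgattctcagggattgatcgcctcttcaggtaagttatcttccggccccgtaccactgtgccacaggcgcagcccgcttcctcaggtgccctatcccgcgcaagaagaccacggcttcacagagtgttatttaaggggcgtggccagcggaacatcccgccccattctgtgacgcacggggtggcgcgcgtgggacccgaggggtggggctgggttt
INSIG1, chr7:155297628-155297877, plus strand: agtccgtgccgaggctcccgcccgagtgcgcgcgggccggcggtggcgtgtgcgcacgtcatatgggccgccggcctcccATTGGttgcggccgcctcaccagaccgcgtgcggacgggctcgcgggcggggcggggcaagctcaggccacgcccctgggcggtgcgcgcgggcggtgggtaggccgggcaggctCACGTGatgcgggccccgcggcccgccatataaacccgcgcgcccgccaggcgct
SREBF2, chr22:41832855-41833104, plus strand: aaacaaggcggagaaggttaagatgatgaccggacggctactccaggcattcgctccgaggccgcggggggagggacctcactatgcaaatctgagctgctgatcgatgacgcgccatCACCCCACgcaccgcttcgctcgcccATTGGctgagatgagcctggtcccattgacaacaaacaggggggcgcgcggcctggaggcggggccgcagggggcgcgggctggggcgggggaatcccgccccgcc
The 4 CCAAT boxes of MSMO1 and the 2 of HMGCS1 stand against none in the window of CYP51A1. For each gene the window of its most upstream start is shown. The window of another start of HMGCS1 holds no CCAAT.

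Levels are FPKM, fragments scaled to transcript length and to the size of the library, as the authors deposited them. The tables hold no counts, so the total depth is unknown. Replicate 3 of 1% oxygen at 3 d stood apart and is called the shallow library: it had 7220 genes above 0, against 14512 to 19543 in the other 35 libraries. A crude relative depth, read from the values that weakly detected genes take, was 0.403 to 1.52 in the others and 0.00916 in it, where it rests on 21 genes. It listed PMVK, HSD17B7 and NPC2 at 0, which every other library detected. Counts of members at 3 d and 6 d and averages over time are therefore also given without the shallow library. Of the other 35 libraries, replicate 3 of 21% oxygen at 24 h had the fewest genes above 0 (14512) and the lowest relative depth (0.403). Its FPKM summed to 1171415, the largest total, with 900700 in replicate 2 of that group next. Genes of K562 (8 of 8 in the table, with globins, GATA1 and TFRC) were expressed throughout; EPOR was at 0 in the shallow library. These 8 summed to 31660 to 38110 FPKM in 1%, 18860 to 20240 in 5% and 4054 to 4318 in 21% oxygen at 6 d. At 3 d they summed to 7115 to 10180 in 1%, 8629 to 10300 in 5% and 4543 to 5138 in 21% oxygen. At 24 h they summed to 9392 to 11260 in 1%, 8013 to 9775 in 5% and 10260 to 18450 in 21% oxygen. Of 11 markers of other cell types, 8 were below the filter on low values, while CD3D, EPCAM and COL1A2 were above it. The 11 summed to 271 to 391 FPKM in 1%, 369 to 523 in 5% and 209 to 221 in 21% oxygen at 3 d, and to 191 to 203 in 1%, 252 to 256 in 5% and 226 to 243 in 21% oxygen at 6 d. The hypoxia genes EGLN3, PDK1, BNIP3 and CA9 summed to 616.5 to 669 FPKM in 1%, 352 to 368 in 5% and 82.0 to 93.9 in 21% oxygen at 6 d. Long noncoding RNAs taken as signs of RNA quality (6 of 7 in the table, led by MALAT1) summed to 584 to 708 FPKM in 1%, 180.0 to 303 in 5% and 161 to 194 in 21% oxygen at 3 d. At 6 d they summed to 217 to 259.8 FPKM in 1%, 309.5 to 415 in 5% and 187 to 219 in 21% oxygen. The part of these lists in the sterol results was not tested.

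Sterol genes stood higher in 1% and in 5% oxygen than in 21% oxygen, and the difference was late. At 6 h no member passed the test, at 24 h 3 of the 5 control genes did in each comparison, and at 3 d most enzymes were higher. All differences below are on the log2(FPKM + 1) scale from a limma fit over all 12 groups, and a gene passed at a Benjamini-Hochberg adjusted p under 0.05 over the 10625 genes with a mean of at least 1 FPKM. Of the 28 members, 26 were tested; ABCA1 and ABCG1 fell below that level. In bulk RNA, fewer cells with a transcript and less transcript per cell cannot be told apart.

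In 1% against 21% oxygen averaged over the 4 times, 18 of the 26 members rose and 0 fell, where 31.4% of all genes passed in either direction, 12.4% up and 19% down. Leaving the shallow library out gave 21 up and 1 down, where 49% of all genes passed in either direction. The median log2 difference of the members was 0.38, against -0.07 over all genes. At 6 h limma called 0 members (0% of all genes), with 2 of the 26 at an unadjusted p under 0.05 and a median of 0.13. Of all 10625 genes tested 351 had such a p. At 24 h 7 rose and 0 fell, where 16.2% of all genes passed, 6.56% up and 9.66% down. That count was 14 (10 higher, 4 lower) without the shallow library, where 38.6% of all genes passed in either direction. It was 4 without replicate 3 of 21% oxygen at 24 h, the library with the largest FPKM total. After rescaling to TPM it was 19 (all higher), with no share of all genes given for that scaling. As TPM the median of all genes was 0.39, against -0.00 before. At 3 d 18 rose and 2 fell (PMVK and SCAP), with a median of 0.88, where 53.2% of all genes passed, 16.9% up and 36.3% down. Without the shallow library 22 rose and 1 fell at 3 d, where 53.7% of all genes passed. The median was then 1.04 and the median of all genes was -0.01, in place of -0.32. A fit on the compared groups only called 11 at 3 d, with no share of all genes given for that fit. At 6 d 13 rose and 0 fell, with a median of 0.47, where 10.9% of all genes passed, 5.84% up and 5.04% down. Without the shallow library 19 rose and 0 fell at 6 d, where 29.8% of all genes passed. Of those 13, FDPS (0.29, adjusted p 0.0269) failed without replicate 1 or 3 of either oxygen level at 6 d, and DHCR7 (0.43, adjusted p 0.0385) without any 1 of the 6 libraries.

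In 5% against 21% oxygen averaged over time, 21 of 26 rose and 0 fell, where 24.2% of all genes passed, 9.21% up and 15% down, and the median was 0.55. Leaving out the shallow library gave 23 up and 1 down, where 48.4% of all genes passed in either direction. At 6 h limma called 0 members (0% of all genes), with 1 at an unadjusted p under 0.05, as were 280 of all 10625 genes tested. At 24 h 6 rose and 0 fell, where 9.38% of all genes passed, 2.39% up and 6.99% down. These 6 rested on single libraries: 0 passed without replicate 3 of 21% or replicate 2 or 3 of 5% oxygen at 24 h, and 3 passed without replicate 2 of 21% or replicate 1 of 5%. Without the shallow library 13 passed (9 higher, 4 lower), where 28.2% of all genes did. As TPM 18 passed (all higher), where the median of all genes was 0.36, and 0 passed in a fit on the compared groups only. The shares of all genes under these settings are not given here, so both counts lack a background. At 3 d 20 rose and 0 fell, with a median of 0.94, where 21.8% of all genes passed, 8.25% up and 13.6% down. Without the shallow library 22 rose and 2 fell, where 44.9% of all genes passed. At 6 d again 20 rose and 0 fell, with a median of 0.90, where 14.8% of all genes passed, 7.24% up and 7.59% down. Without the shallow library 22 rose and 0 fell at 6 d, where 37% of all genes passed. The 1% and 5% comparisons share their 21% libraries. The difference from 21% oxygen varied with time in 17 of 26 members for 1% oxygen, where 40.3% of all genes did. For 5% oxygen it varied in 15, where 14.5% of all genes did. Without the shallow library it varied in 24 members for 1% oxygen, where 63.3% of all genes did. For 5% oxygen it then varied in 19, where 41.9% did.

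**Figure D1:**
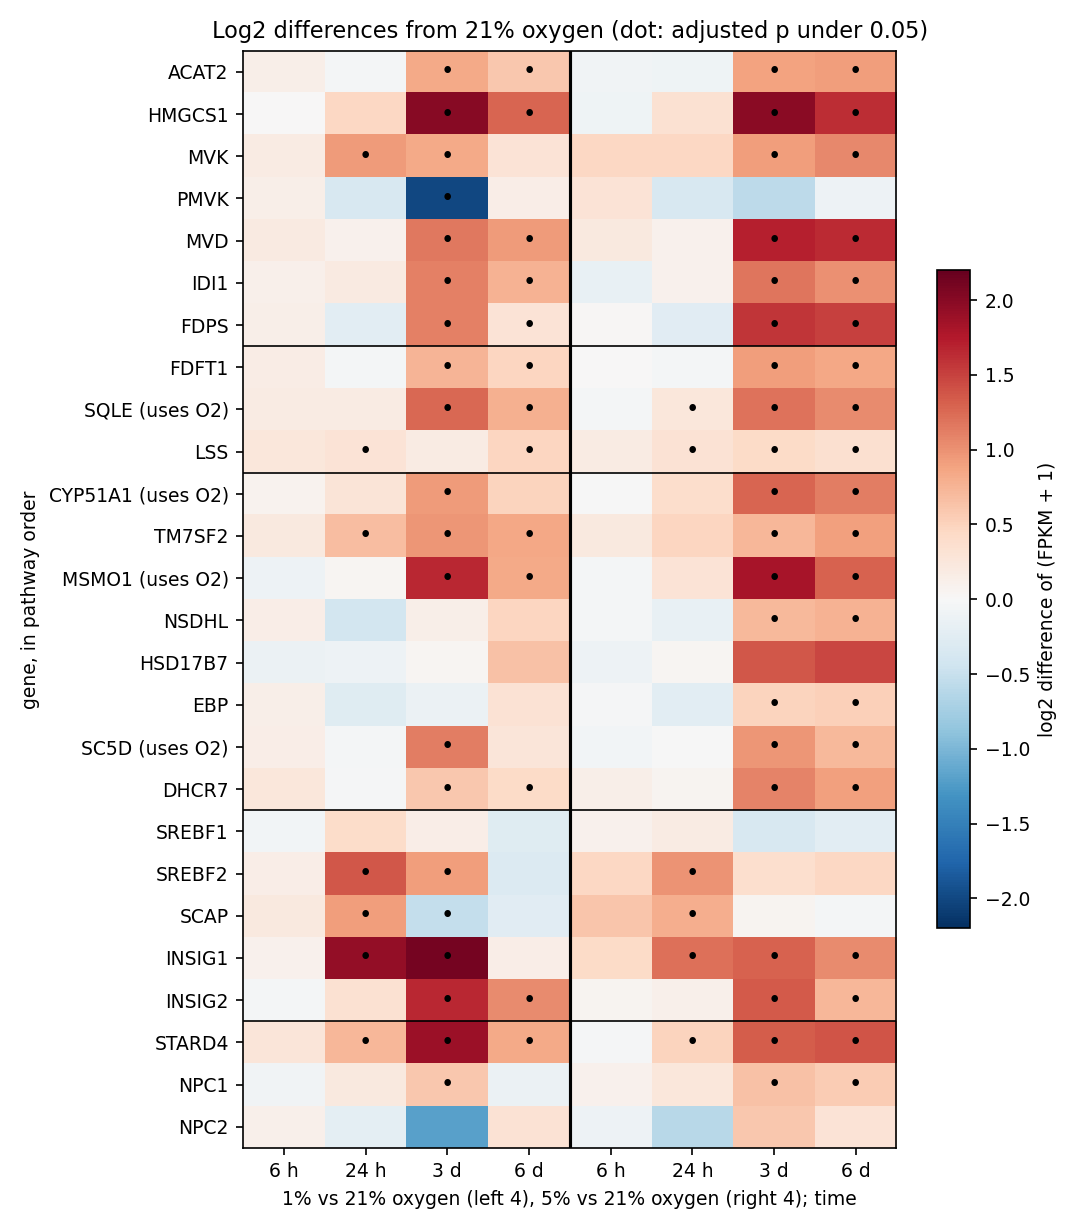
Log2 differences of log2(FPKM + 1) for the 26 tested members in pathway order (rows), with 1% vs 21% oxygen in the left 4 columns and 5% vs 21% in the right 4, each by time; red is higher and blue lower than in 21% oxygen, and a dot marks an adjusted p under 0.05. No cell of 6 h has a dot, 24 h has 7 in 1% and 6 in 5% oxygen, and at 3 d and 6 d the enzymes are red apart from PMVK, which is blue at 3 d in both and at 6 d in 5% oxygen, and EBP in 1% oxygen at 3 d.

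The 7 mevalonate enzymes described here act between acetyl-CoA and farnesyl diphosphate, and 6 of them rose in 1% as in 5% oxygen on average; the exception in both was PMVK. HMGCS1, which makes HMG-CoA, had the widest range of the 18 enzymes, its highest group mean being 11.2 times its lowest. At 6 h HMGCS1 had 14.4, 13.0 and 14.1 FPKM in 1% oxygen, 12.2, 10.6 and 16.5 in 5% and 11.6, 13.9 and 16.3 in 21%. HMGCS1 had, at 24 h, 10.1, 11.1 and 8.89 FPKM in 1%, 6.98, 10.7 and 10.005 in 5% and 8.09, 5.83 and 7.29 in 21% oxygen. The levels of 5% and 21% oxygen overlapped at both times. At 24 h all 3 libraries of 1% were above 21% oxygen, by 0.45, which did not pass (adjusted p 0.0561). It passed without replicate 1 of 21% oxygen at 24 h (adjusted p 0.0356). At 3 d HMGCS1 stood at 72.8, 71.7 and 52.8 FPKM in 1%, 54.9, 62.1 and 79.2 in 5% and 15.5, 16.9 and 14.2 in 21% oxygen. HMGCS1 at 6 d stood at 57.5, 63.8 and 64.5 FPKM in 1%, 77.8, 76.5 and 84.3 in 5% and 23.9, 26.6 and 24.6 in 21% oxygen. Every low-oxygen library was above every 21% library at 3 d and 6 d. The log2 difference from 21% oxygen at 3 d was 2.00 (SE 0.162, adjusted p 1.03e-10) in 1% and 1.99 (SE 0.162, adjusted p 2.97e-10) in 5%, and at 6 d 1.27 and 1.63.

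IDI1, the isomerase of isopentenyl diphosphate, had narrower spreads between replicates. At 6 h IDI1 had 129, 119.5 and 151 FPKM in 1%, 113, 97.5 and 120.3 in 5% and 119, 125 and 125 in 21% oxygen. IDI1 had, at 24 h, 126, 122 and 110.4 FPKM in 1%, 116, 113 and 104 in 5% and 106, 102 and 106 in 21%. The differences at these times did not pass. At 3 d IDI1 reached 401, 425 and 330.2 FPKM in 1%, 384, 397 and 431 in 5% and 171, 175 and 188 in 21% oxygen. At 6 d the values were 328, 346 and 362 FPKM in 1%, 416, 398 and 404 in 5% and 196, 208 and 202 in 21%. The groups of low oxygen did not overlap with 21% at either late time, and the rise at 3 d was 1.10 in 1% (SE 0.0887, adjusted p 8.92e-11) and 1.18 in 5% oxygen (SE 0.0887, adjusted p 6.4e-11).

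PMVK, the kinase of phosphomevalonate, ran the other way at 3 d. It stood between 20.1 and 43.4 FPKM in every library of 6 h and 24 h. At 3 d PMVK had 11.5, 13.2 and 0 FPKM in 1% oxygen, 13.0, 14.8 and 13.97 in 5% and 20.1, 23.7 and 20.4 in 21%. By 6 d PMVK had 16.9, 17.1 and 17.2 FPKM in 1%, 14.9, 12.7 and 15.0 in 5% and 16.4, 14.6 and 15.1 in 21%. All 6 low-oxygen libraries lay below 21% at 3 d. The fall in 1% oxygen at 3 d was -1.99 (adjusted p 0.00179) with the shallow library, where PMVK is listed at 0, and -0.75 (adjusted p 9.51e-05) without it. The difference of 5% from 21% oxygen, -0.58, did not pass (adjusted p 0.489). Without the shallow library that difference passed (adjusted p 0.000612). Of the other 4 mevalonate steps, the decarboxylase MVD and the farnesyl diphosphate synthase FDPS rose by 1.16 and 1.11 in 1% and by 1.71 and 1.57 in 5% oxygen at 3 d. ACAT2, which joins acetyl-CoA units, rose by 0.83 and 0.88, and the mevalonate kinase MVK by 0.84 and 0.92. ACAT2 overlaps TCP1 on the other strand, and whether the counting used strand is not given in the sources used here. The same holds for how reads shared with the near-identical pseudogenes of FDPS, CYP51A1 and HSD17B7 were assigned.

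The 3 squalene steps all rose on average in both comparisons. SQLE, the squalene epoxidase, is the first step of the pathway to use oxygen. At 6 h SQLE had 75.8, 84.0 and 94.2 FPKM in 1%, 72.9, 72.5 and 73.3 in 5% and 75.0, 81.7 and 68.2 in 21% oxygen. SQLE had, at 24 h, 74.8, 71.7 and 61.8 FPKM in 1%, 74.9, 72.9 and 69.5 in 5% and 63.4, 59.7 and 59.2 in 21%. All 3 libraries of 5% oxygen were above 21% at 24 h, by 0.25 on average (adjusted p 0.0491), a call lost without any 1 of 5 of the 6 libraries. At 3 d SQLE stood at 284, 279 and 294 FPKM in 1%, 265, 262 and 295 in 5% and 109, 122 and 124 in 21% oxygen. SQLE at 6 d stood at 187, 198 and 201 FPKM in 1%, 234, 237 and 233 in 5% and 107, 114 and 118 in 21%. No low-oxygen library overlapped with 21% at these times. The rise at 3 d was 1.26 in 1% (SE 0.0803, adjusted p 9.55e-13) and 1.20 in 5% (SE 0.0803, adjusted p 5.61e-12), and at 6 d 0.78 and 1.04. FDFT1, the squalene synthase just before it, rose by 0.74 and 0.92 at 3 d. The lanosterol synthase LSS, just after it, showed small differences: 0.18 in 1% (adjusted p 0.0874) and 0.42 in 5% oxygen (adjusted p 0.000766) at 3 d, and 0.48 and 0.36 at 6 d.

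Between lanosterol and cholesterol 8 enzymes were measured, of which 5 rose in 1% and 6 in 5% oxygen on average and 0 fell. CYP51A1, a cytochrome P450 that demethylates lanosterol, had 72.6, 78.1 and 90.7 FPKM in 1%, 85.2, 65.9 and 76.6 in 5% and 77.4, 75.2 and 74.8 in 21% oxygen at 6 h. At 24 h CYP51A1 had 64.5, 65.4 and 53.8 FPKM in 1%, 65.7, 69.6 and 61.7 in 5% and 54.0, 48.3 and 47.4 in 21%. The 5% libraries were all above the 21% libraries at 24 h, but the difference of 0.39 did not pass (adjusted p 0.288; 0.00409 without the shallow library). At 3 d the values were 249, 256 and 96.1 FPKM in 1%, 219, 207 and 275 in 5% and 95.3, 97.7 and 92.2 in 21% oxygen. At 6 d they were 154, 162 and 168 FPKM in 1%, 255, 251 and 255 in 5% and 105, 119 and 122 in 21%. The value of 96.1 FPKM is that of the shallow library and overlapped with 21% oxygen. CYP51A1 rose by 0.94 in 1% (SE 0.205, adjusted p 0.000468) and 1.28 in 5% oxygen (SE 0.205, adjusted p 2.54e-05) at 3 d. At 6 d the difference was 1.13 in 5% (adjusted p 0.000203) and 0.48 in 1% (adjusted p 0.156; 0.000386 without the shallow library).

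MSMO1, the sterol methyl oxidase, had the lowest level of its 12 groups in 1% oxygen at 6 h and the highest at 3 d in 1% without the shallow library, 8.72-fold apart. At 6 h it had 24.7, 26.7 and 33.3 FPKM in 1%, 33.4, 25.7 and 29.9 in 5% and 32.3, 27.9 and 31.5 in 21% oxygen. At 24 h MSMO1 had 34.0, 36.2 and 30.7 FPKM in 1%, 42.8, 41.1 and 37.4 in 5% and 33.4, 30.0 and 34.8 in 21%. At 24 h only the 5% libraries were all above 21% oxygen, by 0.30, which did not pass (adjusted p 0.174; 0.0313 without the shallow library). At 3 d MSMO1 reached 249.7, 243 and 165 FPKM in 1%, 231, 229.7 and 261 in 5% and 62.6, 68.3 and 72.9 in 21% oxygen. MSMO1 at 6 d reached 156, 146 and 168 FPKM in 1%, 222, 212 and 207 in 5% and 77.4, 94.4 and 89.5 in 21%. Its rise at 3 d, 1.65 in 1% (SE 0.129, adjusted p 5.07e-11) and 1.81 in 5% (SE 0.129, adjusted p 2.16e-11), was the largest of the 4 oxygen-using enzymes in both.

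SC5D, which adds the ring double bond, was the least abundant of the 4 per length. At 6 h SC5D had 8.10, 8.92 and 10.7 FPKM in 1%, 8.75, 6.90 and 8.04 in 5% and 8.90, 8.10 and 7.63 in 21% oxygen. SC5D had, at 24 h, 8.38, 7.68 and 7.72 FPKM in 1%, 7.62, 7.98 and 8.59 in 5% and 7.82, 8.49 and 8.16 in 21%. These groups overlapped. At 3 d it had 25.5, 25.4 and 23.9 FPKM in 1%, 21.0, 22.6 and 22.8 in 5% and 10.4, 10.6 and 11.5 in 21% oxygen. At 6 d the values were 14.5, 16.5 and 16.7 FPKM in 1%, 21.5, 22.9 and 21.6 in 5% and 12.6, 13.1 and 13.2 in 21%. No late group overlapped with 21%: the rise at 3 d was 1.13 in 1% (SE 0.0955, adjusted p 2.33e-10) and 0.96 in 5% (SE 0.0955, adjusted p 1.18e-08). At 6 d it was 0.72 in 5% (adjusted p 2.56e-06), while 0.27 in 1% did not pass (adjusted p 0.0656; 0.0169 without the shallow library).

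Of the other 4 late enzymes tested at 3 d in 5% oxygen beside HSD17B7, all passed: the reductases TM7SF2 (0.74) and DHCR7 (1.10), the dehydrogenase NSDHL (0.71) and the isomerase EBP (0.50, adjusted p 0.037, a call lost without any 1 of 5 of the 6 libraries). In 1% oxygen at 3 d TM7SF2 and DHCR7 rose by 0.97 and 0.59, while NSDHL (0.12) and EBP (-0.13) did not pass. Without the shallow library NSDHL and EBP were at 0.46 (adjusted p 0.00025) and 0.24 (adjusted p 0.0468). HSD17B7, the ketoreductase that works with MSMO1 and NSDHL, had 15.2, 14.1 and 0 FPKM in 1%, 12.9, 14.4 and 16.9 in 5% and 5.26, 4.87 and 5.13 in 21% oxygen at 3 d. At 6 d HSD17B7 had 5.50, 6.10 and 5.72 FPKM in 1%, 12.4, 10.1 and 10.3 in 5% and 4.12, 2.74 and 3.21 in 21%. The 5% libraries stood above 21% at both times, but the differences of 1.36 and 1.46 did not pass (adjusted p 0.0713 and 0.0678) in the fit that holds the shallow library. Without the shallow library they passed (adjusted p 2.39e-08 and 1.06e-08), and 1% oxygen was 1.36 above 21% at 3 d (adjusted p 1.05e-07).

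The oxygen-using enzymes moved with the rest of the pathway. The median log2 difference of the 4 from 21% oxygen was above that of the 14 other enzymes at 24 h, 3 d and 6 d and just below it at 6 h, and the ranges overlapped each time. These medians are descriptions and were not tested. In 1% against 21% oxygen the medians were 0.52 for the 4 and 0.33 for the 14 on average over time, and 1.20 and 0.79 at 3 d, a gap of 0.41 (0.42 without the shallow library and 0.56 without replicate 2 of 1% oxygen). In 5% against 21% oxygen they were 0.66 and 0.54 on average, 1.24 and 0.92 at 3 d, and 1.09 and 0.91 at 6 d. The range of the 4 at 3 d in 5% oxygen, 0.96 to 1.81, lay inside that of the 14, -0.58 to 1.99. At 6 h the gap was -0.02 in 1% and -0.06 in 5% oxygen.

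Library by library, the gap differed between times, here without a test. With each gene set relative to its own mean over the 12 groups, the 4 minus the 14 at 3 d was 0.40, 0.12 and 0.75 in 1% oxygen, the last in the shallow library. It was 0.10, 0.14 and 0.20 in 5% and -0.19, -0.08 and -0.07 in 21% oxygen at 3 d. At 6 d it was 0.15, 0.20 and 0.18 in 1%, 0.14, 0.23 and 0.23 in 5% and 0.06, 0.16 and 0.23 in 21% oxygen. The low-oxygen and 21% libraries were apart at 3 d and overlapped at 6 d. At 24 h the gap was -0.13, -0.05 and -0.21 in 1% and -0.004, -0.02 and -0.02 in 5% oxygen. In 21% oxygen it was then -0.10, -0.24 and -0.38. Thus at 24 h the 5% libraries were clear of 21% oxygen and the 1% libraries overlapped with it. The 3 oxygen levels overlapped at 6 h. The pooled SD of the gap between replicates was 0.126.

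**Figure D2:**
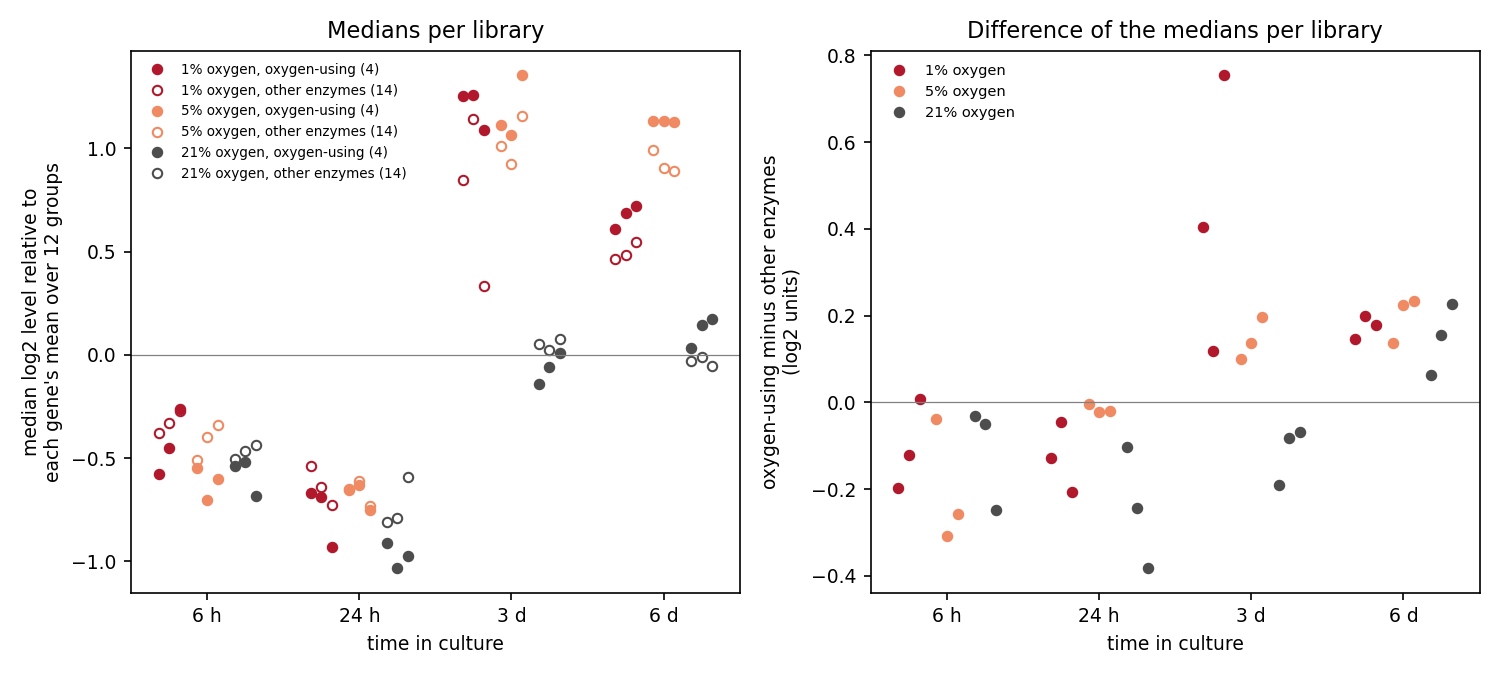
Left: per library, the median log2 level of the 4 oxygen-using enzymes (filled) and of the 14 other synthesis enzymes (open), relative to each gene's mean over the 12 groups, by time and oxygen level. Right: the difference of those medians per library in log2 units; at 3 d it is 0.40, 0.12 and 0.75 in 1%, 0.10 to 0.20 in 5% and -0.19 to -0.07 in 21% oxygen, and at 6 d the 3 oxygen levels overlap.

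Of the 5 genes of SREBP control, INSIG1 had the widest range of the 26 tested members: its highest group mean was 561.8 ± 15.2 FPKM (SD, n = 3) in 5% oxygen at 6 d and its lowest 14.06 ± 1.42 FPKM (SD, n = 3) in 21% oxygen at 24 h, a ratio of 40.0. At 6 h INSIG1 had 18.0, 18.5 and 21.1 FPKM in 1%, 24.9, 23.3 and 24.0 in 5% and 13.2, 21.0 and 20.3 in 21% oxygen. By 24 h INSIG1 had 59.0, 50.7 and 59.9 FPKM in 1%, 22.4, 32.4 and 53.4 in 5% and 14.9, 14.9 and 12.4 in 21%. All 6 low-oxygen libraries were above 21% oxygen at 24 h, by 1.93 in 1% (SE 0.31, adjusted p 0.000228) and 1.22 in 5% (SE 0.31, adjusted p 0.0144). The call in 5% oxygen was lost without replicate 3 of 21% (adjusted p 0.151) or replicate 2 or 3 of 5% (adjusted p 0.0513 and 0.148). At 3 d INSIG1 had 267, 634 and 534 FPKM in 1%, 269.8, 201 and 309 in 5% and 125, 100.2 and 87.5 in 21% oxygen. By 6 d INSIG1 had 481, 373 and 156 FPKM in 1%, 578, 547 and 561 in 5% and 255, 279.8 and 286 in 21%. The 1% libraries of 6 d lay on both sides of the 21% libraries. The rise at 3 d was 2.11 in 1% (adjusted p 3.23e-06) and 1.30 in 5% (adjusted p 0.00251), and at 6 d the difference was 0.15 in 1% (adjusted p 0.885) and 1.04 in 5% (adjusted p 0.0217; 0.0505 to 0.0796 with any 1 library left out). INSIG2, which shares this role, did not pass at 24 h (0.33 and 0.10) and rose by 1.65 in 1% and 1.35 in 5% oxygen at 3 d, and by 1.04 and 0.72 at 6 d. The transcript table lists 3 transcripts of INSIG1, of which the main one held 72.6% to 92.4% of the gene's FPKM, with a median of 87.7% over the libraries.

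SREBF2, the gene of the SREBP form that drives sterol synthesis, also differed at 24 h. At 6 h SREBF2 had 7.60, 6.68 and 5.86 FPKM in 1%, 7.18, 10.4 and 8.25 in 5% and 4.74, 6.47 and 6.89 in 21% oxygen. By 24 h SREBF2 had 13.0, 9.45 and 13.2 FPKM in 1%, 6.78, 8.34 and 11.6 in 5% and 4.56, 3.89 and 3.38 in 21%. All 6 low-oxygen libraries were above 21% at 24 h, by 1.37 in 1% (SE 0.269, adjusted p 0.00105) and 0.98 in 5% (SE 0.269, adjusted p 0.0214; 0.194 without replicate 3 of 21%, and 0.0655 and 0.162 without replicate 2 and 3 of 5%). At 3 d SREBF2 had 16.5, 28.8 and 19.6 FPKM in 1%, 13.0, 11.5 and 18.7 in 5% and 13.7, 10.4 and 8.43 in 21% oxygen. By 6 d SREBF2 had 25.3, 20.1 and 8.26 FPKM in 1%, 26.5, 30.0 and 28.3 in 5% and 21.3, 20.5 and 19.3 in 21%. The 1% libraries were above 21% at 3 d (0.92, adjusted p 0.00586) and overlapped with it at 6 d (-0.31, adjusted p 0.611).

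SREBF1, which encodes the forms that lean towards fatty acid synthesis, stayed between 1.89 and 6.10 FPKM. At 6 h SREBF1 had 1.89, 2.54 and 2.18 FPKM in 1%, 3.02, 2.29 and 2.39 in 5% and 2.72, 2.09 and 2.23 in 21% oxygen. By 24 h SREBF1 had 3.42, 3.38 and 3.46 FPKM in 1%, 2.79, 2.92 and 2.73 in 5% and 2.05, 2.42 and 2.60 in 21%. These 24 h values did not overlap between the 3 oxygen levels, yet the differences from 21%, 0.40 in 1% (adjusted p 0.0778; 0.0321 without the shallow library) and 0.19 in 5% (adjusted p 0.596), did not pass. At 3 d SREBF1 had 2.57, 4.73 and 3.42 FPKM in 1%, 2.29, 2.11 and 2.10 in 5% and 3.31, 2.96 and 2.90 in 21% oxygen. By 6 d SREBF1 had 6.10, 3.71 and 3.35 FPKM in 1%, 4.52, 4.54 and 4.204 in 5% and 5.42, 5.03 and 5.60 in 21%. The 5% libraries were below 21% at both late times, by -0.35 and -0.23, and neither passed (adjusted p 0.107 and 0.404; 0.0497 at 3 d without the shallow library). Its main transcript of 2 held between 0.0686% and 100% of the gene's FPKM, with a median of 75.7%. SCAP, the escort, rose at 24 h by 0.91 in 1% (adjusted p 0.00422) and 0.81 in 5% (adjusted p 0.0182), calls lost without replicate 3 of 21% at 24 h (adjusted p 0.0665 and 0.272). The call in 5% oxygen was also lost without replicate 2 or 3 of 5% (adjusted p 0.1 and 0.0994). In 1% oxygen at 3 d it fell by -0.53 (adjusted p 0.0419), a call lost without any of 5 of the 6 libraries, the shallow one included (adjusted p 0.0886).

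STARD4, a carrier of cholesterol between membranes, rose in 1% oxygen on average (0.93, SE 0.0788, adjusted p 5.18e-10). At 6 h STARD4 had 14.4, 14.2 and 15.8 FPKM in 1%, 12.3, 10.4 and 13.2 in 5% and 9.33, 11.6 and 16.4 in 21% oxygen. By 24 h STARD4 had 16.1, 15.8 and 13.4 FPKM in 1%, 12.04, 13.5 and 12.3 in 5% and 12.3, 8.23 and 6.46 in 21%. Only 1% oxygen was clear of 21% at 24 h (0.73, adjusted p 0.00235); 5% oxygen overlapped with it (0.49, adjusted p 0.0493, lost without any 1 of 5 of the 6 libraries). At 3 d STARD4 had 87.9, 86.5 and 77.5 FPKM in 1%, 58.6, 58.9 and 53.2 in 5% and 21.3, 22.5 and 22.2 in 21% oxygen. By 6 d STARD4 had 43.6, 45.3 and 51.0 FPKM in 1%, 65.4, 72.3 and 67.3 in 5% and 22.4, 27.6 and 27.2 in 21%. The 3 oxygen levels did not overlap at either late time, and 1% was above 5% at 3 d and below it at 6 d. NPC1, which exports cholesterol from lysosomes, rose at 3 d by 0.60 in 1% (adjusted p 0.00126) and 0.65 in 5% (adjusted p 0.00147), and at 6 d by 0.55 in 5% (adjusted p 0.00875).

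NPC2, its soluble partner, had 53.2, 66.7 and 0 FPKM in 1%, 49.2, 53.5 and 54.5 in 5% and 31.6, 32.9 and 38.5 in 21% oxygen at 3 d. The value of 0 is that of the shallow library, and no difference of NPC2 passed with it. Without it NPC2 was 0.78 higher in 1% (adjusted p 1.58e-05) and 0.60 higher in 5% oxygen (adjusted p 0.000164) at 3 d, and averaged over time 0.25 higher in 1% oxygen (adjusted p 0.0015), against -0.25 (adjusted p 0.662) with it. The sterol exporters ABCA1 and ABCG1 averaged 0.0667 and 0.148 FPKM over all libraries. ABCA1 reached 0.325, 0.303 and 0 FPKM in 1%, 0.119, 0.143 and 0.0429 in 5% and 0.00577, 0.0706 and 0.04 in 21% oxygen at 3 d, levels too low for the test.

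**Figure D3:**
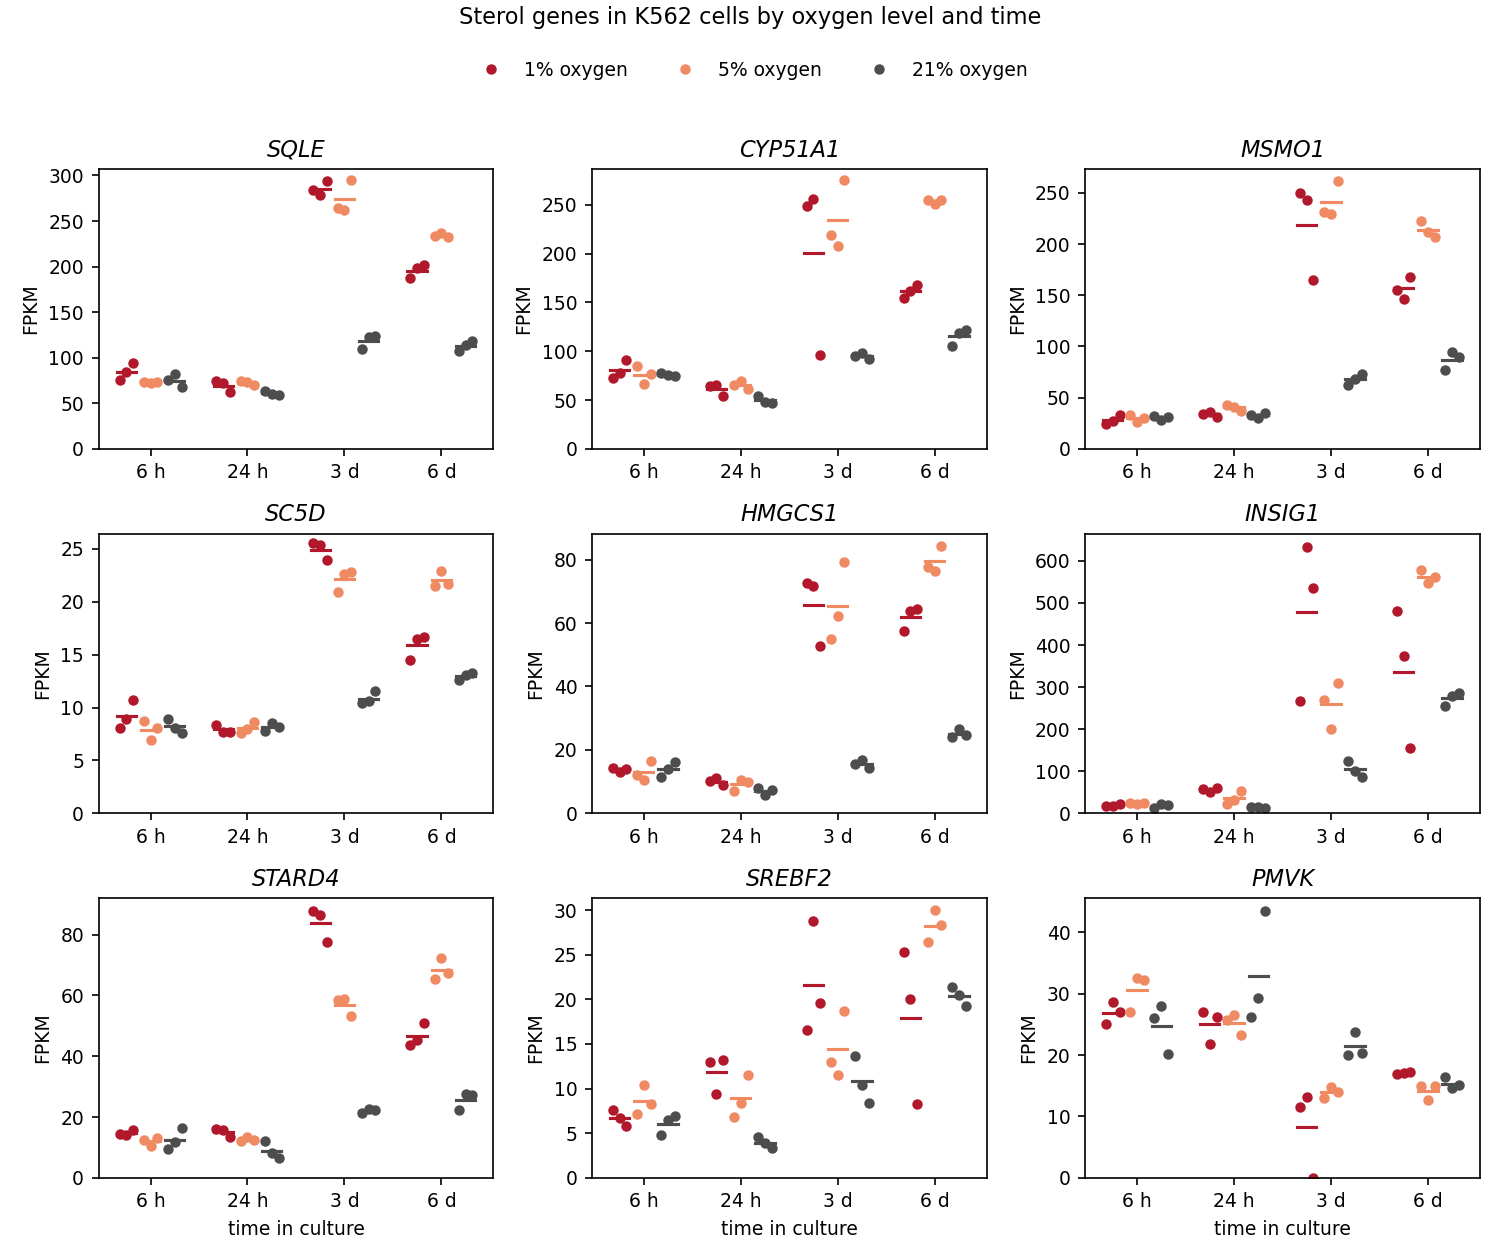
FPKM of 9 members in every library (points) with group means (short lines), by time, for 1%, 5% and 21% oxygen; each panel has its own axis. At 6 h and 24 h most points lie close together, and at 3 d and 6 d the points of 1% and 5% lie above those of 21% oxygen for SQLE, MSMO1, SC5D, HMGCS1 and STARD4; PMVK lies below 21% oxygen at 3 d, and its point at 0 is the shallow library.

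Between the low levels, the sterol genes stood lower in 1% than in 5% oxygen at 6 d. Of 26 members 12 fell and 0 rose at that time, where 8.61% of all genes passed, 4.72% up and 3.9% down. The median was -0.36, against 0.03 over all genes. Without the shallow library 17 fell and 0 rose at 6 d, where 27.6% of all genes passed. All 3 libraries of 1% oxygen were below all 3 of 5% in 19 members and above them in 2. Such overlap was not counted over all genes, so these counts have no background here. FDPS fell most: it had 223, 213 and 233 FPKM in 1% and 521, 527 and 506 in 5% oxygen at 6 d, a log2 difference of -1.21 (SE 0.0874, adjusted p 1.38e-10). All 4 oxygen-using enzymes fell, SC5D by -0.45 (adjusted p 0.00225), MSMO1 by -0.45 (adjusted p 0.0264), SQLE by -0.26 (adjusted p 0.0385) and CYP51A1 by -0.65 (adjusted p 0.0445). ACAT2, FDPS, FDFT1, SC5D and NPC1 passed whichever library of the 2 groups was left out, while MVK, MVD, SQLE, CYP51A1, MSMO1, DHCR7 and STARD4 each failed in some such fits. The count was 5 without replicate 1 or 2 of 5% or replicate 2 of 1% oxygen, and 7 without replicate 3 of 5%. INSIG1 (-0.89, adjusted p 0.0792) and SREBF2 (-0.76, adjusted p 0.0838) did not pass.

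At 3 d the same comparison was unsettled. It called 3 members higher (INSIG1, SREBF1 and STARD4) and 8 lower in 1% oxygen, where 36.6% of all genes passed, 13.4% up and 23.2% down. The share of members is near that background. The calls changed with the libraries and the scaling. Leaving out the shallow library gave 2 up and 2 down, where 26.9% of all genes passed. TPM gave 8 up and 0 down, and quantile normalization gave 7 up and 5 down. The share of all genes is not given under either scaling. A total of 7 passed without replicate 2 of 5% and 5 without replicate 3 of 5% oxygen at 3 d. STARD4, at 0.55 (adjusted p 0.011), was higher in 1% in each of its 3 libraries. Averaged over time, FDPS, MSMO1 and DHCR7 fell and 0 rose, where 4.41% of all genes passed, 2.89% up and 1.52% down. Those 3 were 8 (1 higher, 7 lower) without the shallow library, 6 and 7 without replicate 1 and 2 of 1% oxygen at 3 d, and 1 when any 1 of 12 other libraries was left out (at 6 h replicates 1 and 2 of 1% and 1 and 3 of 5%, at 24 h replicate 3 of 1% and 1 and 2 of 5%, at 3 d replicate 3 of 5%, at 6 d replicates 1 and 2 of 1% and of 5%). In that average 14.2% of all genes passed without the shallow library. At 6 h and 24 h limma called 0 members between 1% and 5% oxygen. Of all genes 0.0471% passed at 6 h, 0.0282% up and 0.0188% down, and 0.744% at 24 h, 0.668% up and 0.0753% down. Members at an unadjusted p under 0.05 numbered 4 and 2, against 567 and 653 of all 10625 genes tested.

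**Figure D4:**
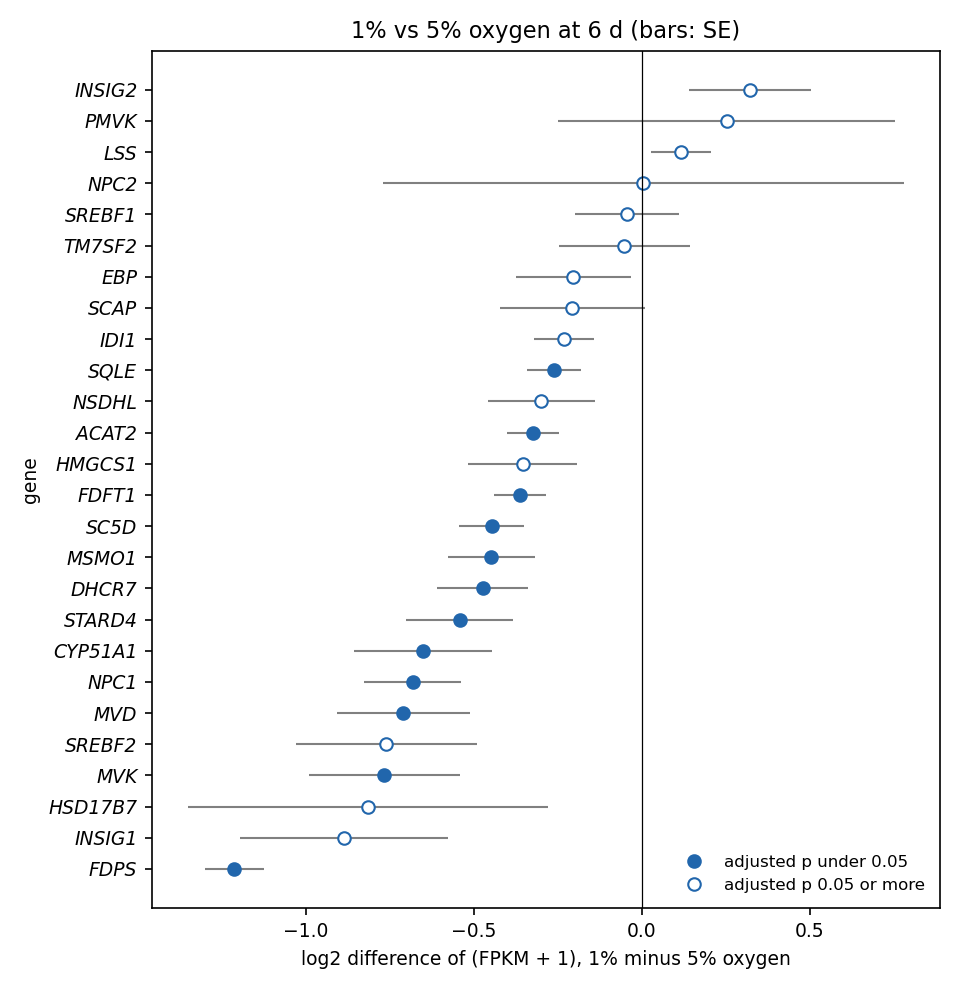
Log2 difference of log2(FPKM + 1) in 1% minus 5% oxygen at 6 d for the 26 tested members (points), with bars of 1 SE; filled points passed at an adjusted p under 0.05. All 12 filled points lie left of 0, FDPS furthest at -1.21.

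Levels also differed between times within 21% oxygen. At 24 h against 6 h ACAT2 (-0.38), HMGCS1 (-0.88) and LSS (-0.52) fell, where 0.132% of all genes passed, 0.0471% up and 0.0847% down. The calls rested on single libraries, since 0 passed without replicate 2 or 3 of 6 h and 1 without replicate 2 of 24 h. At 3 d against 6 h 12 of 26 members rose and 0 fell, where 4.6% of all genes passed, 3.42% up and 1.19% down. Without the shallow library 20 rose, where 18.1% of all genes passed. MVK, TM7SF2 and SCAP failed without replicate 1 of 6 h (adjusted p 0.0575, 0.0829 and 0.196). At 6 d against 6 h 16 rose and 0 fell, where 11.1% of all genes passed, 7.89% up and 3.24% down. Without the shallow library 20 rose and 1 fell, where 29.3% of all genes passed. INSIG1 led with 2.47 at 3 d (adjusted p 8.25e-06) and 3.87 at 6 d (adjusted p 4.58e-09). SREBF2 rose by 1.62 (adjusted p 0.000218), MSMO1 by 1.48 (adjusted p 1.9e-08), MVK by 1.41 (adjusted p 0.000135) and SREBF1 by 0.93 (adjusted p 0.000207) at 6 d. The level of 13 of the 26 members was lowest in 21% oxygen at 24 h among the 12 groups, with the shallow library left out of the means. All but PMVK and SREBF1 were highest in 1% or 5% oxygen at 3 d or 6 d: 9 in 1% at 3 d, 9 in 5% at 3 d, 5 in 5% at 6 d, and LSS in 1% at 6 d. PMVK was highest in 21% oxygen at 24 h and SREBF1 in 21% oxygen at 6 d.

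Other genes of sterol and fatty acid metabolism moved in both directions. Of 38 listed, 37 were in the table and 35 were tested: 9 rose and 6 fell in 1%, and 9 rose and 5 fell in 5% against 21% oxygen averaged over time, with medians of -0.08 and 0.01. Of all genes 12.4% rose and 19% fell in 1%, and 9.21% rose and 15% fell in 5% oxygen, so the falls are near that background. SCD, the stearoyl-CoA desaturase, which uses oxygen, rose by 0.48 in 1% (adjusted p 5.08e-11) and 0.58 in 5% (adjusted p 1.15e-12). LPIN1, a phosphatidate phosphatase, rose by 0.54 and 0.55. MYLIP, a ubiquitin ligase, rose by 0.71 in both. AUP1, a lipid droplet protein, fell by -0.42 in 1% (adjusted p 2.5e-07) and -0.20 in 5% (adjusted p 0.0046). In 5% oxygen ACSS2, which makes acetyl-CoA from acetate, rose by 1.24 (adjusted p 7.53e-07) and C14orf1, a scaffold of sterol enzymes, by 0.46 (adjusted p 9.62e-07). At 6 d ACSS2 was lower in 1% than in 5% oxygen by -1.83 (adjusted p 0.000206).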

How the data were processed

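Polyadenylated RNA of 36 K562 libraries was sequenced in pairs of reads from cDNA made by a Smart-seq2-type method, per the labels' protocols. The authors deposited 2 tables of FPKM values, 1 of 21950 genes and 1 of 41726 transcripts. TopHat, Cufflinks and Cuffnorm are named in the submitters' processing notes; the sources used here do not give their versions, the annotation or the genome build.

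From the FPKM values log2(FPKM + 1) was computed, which understates changes of low genes, and genes with a mean of at least 1 FPKM were kept (10625). The 12 group means were fitted over all 36 libraries with limma 3.58.1 (R 4.3.3), its prior variance following a trend in mean level, which leaves 24 residual degrees of freedom. Tests were two-sided, with Benjamini-Hochberg adjustment over all kept genes in each of 20 comparisons. The steps were tried on simulated data with normal noise and, in changed genes, the same shift in every 1% library. That simulation held no shallow library and no effect that changed with time, so it cannot speak for those. Summaries used Python 3.11.15 and pandas 2.3.3. Other pseudocounts, filters, scalings (TPM, quantile), fits and left-out libraries were tried.

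All members are named. Values in every library are given for 10 members chosen for their roles, which include the 3 largest rises in 1% against 21% oxygen averaged over time (no fall passed), and of other pathway genes up to 4 of smallest adjusted p. Members and lists were chosen with earlier results of these data known. Some genes of the pathway are not reported here.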

Additional observations from a re-analysis of the deposited data

Results flagged for a closer look

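The oxygen difference of a gene was tested for change over the 4 times, with limma's F test over the time points and Benjamini-Hochberg adjustment over all genes tested. In 1% against 21% oxygen 17 members passed, and their adjusted p-values were: ACAT2 (1.15e-06), HMGCS1 (4.65e-07), PMVK (0.0436), MVD (0.00521), IDI1 (6.14e-07), FDPS (2.29e-08), FDFT1 (9.99e-06), SQLE (2.23e-08), MSMO1 (3.97e-08), NSDHL (0.0205), SC5D (5.26e-07), SREBF2 (0.00342), SCAP (0.00233), INSIG1 (0.000289), INSIG2 (3.32e-05), STARD4 (1.76e-05) and NPC1 (0.0176). In 5% against 21% oxygen 15 members passed, and their adjusted p-values were: ACAT2 (3.73e-09), HMGCS1 (1.04e-07), MVD (2.5e-05), IDI1 (2.54e-09), FDPS (1.12e-12), FDFT1 (1.73e-08), SQLE (2.45e-09), CYP51A1 (0.00449), MSMO1 (2.44e-08), NSDHL (0.00328), EBP (0.0499), SC5D (1.11e-06), DHCR7 (0.000152), INSIG2 (0.00115) and STARD4 (4.09e-05). The F test says that the difference was not the same at every time, and gives no direction. The same comparison passed in 40.3% of all genes for 1% and in 14.5% for 5% oxygen. Without the shallow library 24 members and 63.3% of all genes passed for 1% oxygen. For 5% oxygen 19 members and 41.9% of all genes then passed. With 1 library left out at a time, PMVK in 1% oxygen failed in 19 of 24 fits (adjusted p 0.0507 to 0.101) and EBP in 5% oxygen in 22 of 24 (adjusted p 0.0552 to 0.128). In 1% oxygen NSDHL failed in 2 such fits (adjusted p 0.0547 and 0.0735) and NPC1 in 1 (adjusted p 0.053). No explanation was tested.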

How the results depend on the processing

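The gap between oxygen-using and other enzymes averaged over time moved by less than 0.126 under the alternatives tried. That value is the pooled SD between single libraries. The averaged gaps of 0.12 in 5% against 21% and 0.04 in 1% against 5% oxygen are smaller than it. It therefore cannot show that those gaps were stable. At 3 d in 1% against 21% oxygen the gap was 0.56 without replicate 2 of 1% oxygen, against 0.41. Quantile normalization also moved 1 gap of a single comparison by more than 0.126. The counts of members called stayed within 1.5 times of those reported, except for these. In 1% against 21% oxygen at 24 h 7 were called, against 19 as TPM, 14 without the shallow library, and 4 to 9 with 1 library left out; at 3 d 20 were called, against 11 in a fit on the compared groups only. In 5% against 21% oxygen at 24 h 6 were called, against 0 on the compared groups only, 18 as TPM, 13 without the shallow library, and 0 to 7 with 1 library left out. In 1% against 5% oxygen averaged over time 3 were called, against 1 without the filter, 1 on the compared groups only, 6 after quantile normalization, 8 without the shallow library, and 1 to 8 with 1 library left out. At 3 d 11 were called, against 6 without the filter, 0 on the compared groups only, 4 without the shallow library, and 4 to 13 with 1 left out; at 6 d 12 were called, against 5 to 8 with 1 left out. At 24 h against 6 h in 21% oxygen 3 were called, against 0 on the compared groups only, 6 after quantile normalization, 5 as TPM, 5 without the shallow library, and 0 to 4 with 1 left out; at 3 d against 6 h 12 were called, against 20 without the shallow library. Without the shallow library 2.42% of all genes passed at 24 h against 6 h in 21% oxygen. The like shares for the other comparisons named here stand with the results above. For the other settings and left-out libraries the shares of all genes are not given, so those counts have no background here. NPC2 averaged over time turned from -0.25 to 0.25 (0.2478) in 1% against 21% and from -0.29 to 0.2 in 1% against 5% oxygen without the shallow library; with 1 library left out it ran from -0.5124 to 0.2478 and from -0.5602 to 0.2. Except for the shallow library and the fits on fewer samples, which change what enters the fit, the cause was not tested.

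Replicate numbers did not pair the libraries: same-numbered deviations had a median correlation of -0.00243 (-0.312 to 0.402). With the number as a block, 20 members were called in 1% against 21% oxygen at 3 d and 13 at 6 d. In 5% against 21% oxygen 4 were called at 24 h, 20 at 3 d and 20 at 6 d. Shares of all genes are not given for that fit. The depth of the libraries is unknown, so counting error could not be given, and values near 0 cannot be told from missed detection.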
